A study of Mus musculus with 2 samples.

Results

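Foam-type macrophages of the aortic arch were chosen by their RNA counts in 1 library per diet, and 209 of 8155 kept cells met the rule. Of these, 46 were among 5416 ND cells and 163 among 2739 HFD cells. Kept cells had 200 or more detected genes, 200 or more UMIs (unique molecular identifiers, each marking 1 captured RNA molecule) and at most 30% mitochondrial UMIs. Members of the set held at least 0.2% of their UMIs in the complement genes C1qa, C1qb and C1qc and did not have UMIs of both endothelial genes Pecam1 and Cdh5. The summed UMIs of Gpnmb, Trem2, Mmp12, Atp6v0d2 and Syngr1, called F, were at least 3 and above the summed UMIs of the resident macrophage genes Folr2, Lyve1, Cd163, Fcna and Cd209f, called R. The counts of these 10 genes and of the 3 C1q genes therefore chose the cells, and their values below are a description.

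Both libraries came from Apoe-/- mice on a C57BL/6 background at 16 weeks of age, so the Apoe deletion is shared by both diets. ND mice were fed normal chow and HFD mice a high-fat and high-cholesterol diet. For each diet the cells of 2 aortas were pooled, and the mice cannot be told apart in the counts. With 1 library per diet there was no replicate, and no difference was tested. Levels are given as CPM, the UMIs of a gene per 1000000 UMIs summed over a group of cells, with exact 95% intervals in parentheses that cover counting error only. Apoe, the deleted gene, was at 18.1 (6.63 to 39.3) CPM in ND and 25.7 (18.4 to 34.9) CPM in HFD members, and a 3′ tag outside the deleted part checks nothing about the genotype.

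Foam cells are macrophages that have taken up more lipoprotein cholesterol than they export, and they fill the core of atherosclerotic plaques. TREM2 is a lipid-sensing receptor that signals through the adaptor TYROBP, and GPNMB is a transmembrane glycoprotein of the endosome and lysosome whose gene is a known target of the MiT/TFE transcription factors, which also drive lysosome biogenesis. MMP12 is the macrophage elastase, Atp6v0d2 encodes a subunit of the proton pump that acidifies lysosomes, Syngr1 encodes a vesicle protein, and SPP1 (osteopontin) is a secreted matrix glycoprotein. Resident macrophages of the adventitia are in contrast marked by Lyve1, a hyaluronan receptor, and Folr2, a folate receptor.

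Markers of the label were found in most HFD members, while Gpnmb was found in few ND members. All 5 markers named for the cells (Gpnmb, Trem2, Mmp12, Spp1 and Atp6v0d2) were above 50 CPM in both libraries. All of them but Spp1 are genes of F that chose the cells, so their levels do not test the label. However, Gpnmb was found in 134 of 163 HFD members (82.2%, 75.5% to 87.7%) and in 2 of 46 ND members (4.35%, 0.531% to 14.8%). With 1000 UMIs drawn from every cell, the shares were 67.5% (59.7% to 74.6%) and 4.35% (0.531% to 14.8%). General macrophage genes were present in both, with all 11 of 11 macrophage markers above 50 CPM, among them the C1q genes of the rule. The ND members are therefore called by their rule and leading genes, Mmp12 and Trem2, where they are described on their own.

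In the HFD library the members made up 34.5% (30.2% to 39.0%) of the 472 cells that passed the C1q and endothelial limits, here called C1q macrophages. In the ND library they made up 12.6% (9.40% to 16.5%) of 364. The intervals of both libraries did not overlap. Of all kept cells the members were 5.95% (5.09% to 6.90%) in the HFD library and 0.849% (0.622% to 1.13%) in the ND library. The other C1q macrophages were resident-type cells, with R of at least 3 and above F, and macrophages of neither kind. There were 221 ND (60.7%) and 198 HFD (41.9%) resident-type cells, and 97 (26.6%) and 111 (23.5%) cells of neither kind.

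The split by Gpnmb, which was made after the values had been seen, divided this difference. Members with a UMI of Gpnmb (Gpnmb-positive) were 0.549% (0.0666% to 1.97%) of ND and 28.4% (24.4% to 32.7%) of HFD C1q macrophages. Members without one (Gpnmb-negative) were 12.1% (8.92% to 15.9%) of ND and 6.14% (4.15% to 8.70%) of HFD C1q macrophages. The order of the diets was thus opposite in these 2 kinds of member.

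**Figure D1:**
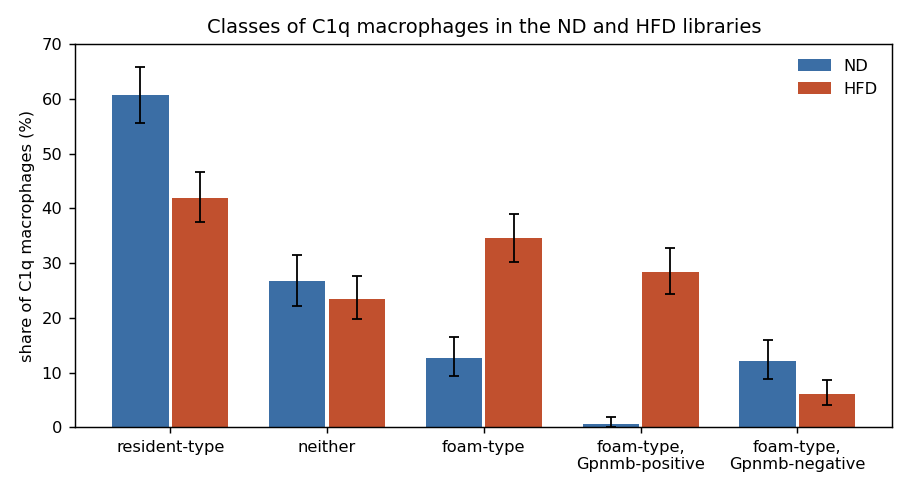
Share of C1q macrophages (y axis, percent) that were resident-type, of neither kind or foam-type, with foam-type cells also split by Gpnmb, in the ND and HFD libraries; error bars are exact 95% intervals of counting error. The foam-type share was 12.6% for ND and 34.5% for HFD, and the Gpnmb-positive share 0.549% and 28.4%.

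The mitochondrial limit acted on this share in the HFD library. Median mitochondrial UMIs were 15.5% in HFD foam-type cells, 22.6% in resident-type cells and 25.5% in cells of neither kind, while the ND medians were 17.0%, 16.1% and 19.3%. With a limit of 20% in place of 30%, the foam-type share was 60% among HFD and 13.2% among ND C1q macrophages. With no limit it was 26.2% (23.3% to 29.2%) of 898 HFD and 10.1% (7.51% to 13.1%) of 477 ND C1q macrophages. The HFD members were also deeper, with a median of 8743 UMIs against 5393.5 in resident-type cells and 4987 in cells of neither kind, and the ND members had 5112. In cells thinned to 1000 UMIs, with F of at least 1, the ND share was 13.2% (51 of 386) and the HFD share 35.2% (188 of 534).

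Gpnmb was the leading gene of the rule in the HFD members and not in the ND members. In each cell the gene of F with the most UMIs was Gpnmb in 93 of 163 HFD members, followed by Mmp12 in 35, Trem2 in 34 and Syngr1 in 1. In the ND library it was Mmp12 in 28 of 46 members, Trem2 in 17 and Gpnmb in 1. All 5 genes were found in 53 HFD members (32.5%) and in 2 ND members (4.35%). Only 1 of the 5 was found in 13 HFD members (7.98%) and in 28 ND members (60.9%). F itself ranged from 3 to 523 UMIs per HFD member with a median of 34, and from 3 to 451 per ND member with a median of 7.

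Gpnmb (chr6:49036546-49070929, plus strand, GRCm38) was at 3460.5 (3369.8 to 3553) CPM in HFD members, with a lowest value of 0, a median of 16 and a highest of 413 UMIs per cell. In ND members all 362 UMIs lay in 2 cells, with 302 and 60, and the other 44 had none. Trem2 (chr17:48346401-48354147, plus strand) ran from 0 to 56 with a median of 8 UMIs per HFD member and from 0 to 75 with a median of 1.5 per ND member. It was found in 92.6% of HFD and 60.9% of ND members. Mmp12 (chr9:7344381-7369499, plus strand) was at 1314 (1258 to 1371) CPM in HFD and 1931 (1784 to 2086) CPM in ND members. A single ND cell held 273 of the 641 ND UMIs, and without it the ND level was 1159 (1043 to 1283) CPM, an interval that overlaps that of HFD. No HFD cell was left out in turn, so the order of the diets is not settled by this. The median of Mmp12 was 3 UMIs per HFD member, with a highest of 154, and 4.5 per ND member, with a highest of 273.

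The lysosomal pump subunit gene Atp6v0d2 (chr4:19876841-19922605, minus strand) was found in 55.2% of HFD and 10.9% of ND members, with 1 ND cell holding 60.5% of its 43 ND UMIs. Syngr1 (chr15:80091334-80119501, plus strand) was found in 71.8% and 8.70%. Spp1 (chr5:104435118-104441050, plus strand), which the rule did not use, was at 4598 (4493 to 4704) CPM in HFD members and was uneven among them. The lowest value was 0, the median 5 and the highest 1623 UMIs per cell, and that cell held 22.1% of the 7333 UMIs. In ND members it was at 861 (765 to 967) CPM, and 2 cells held 87.4% of the 286 UMIs.

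**Figure D2:**
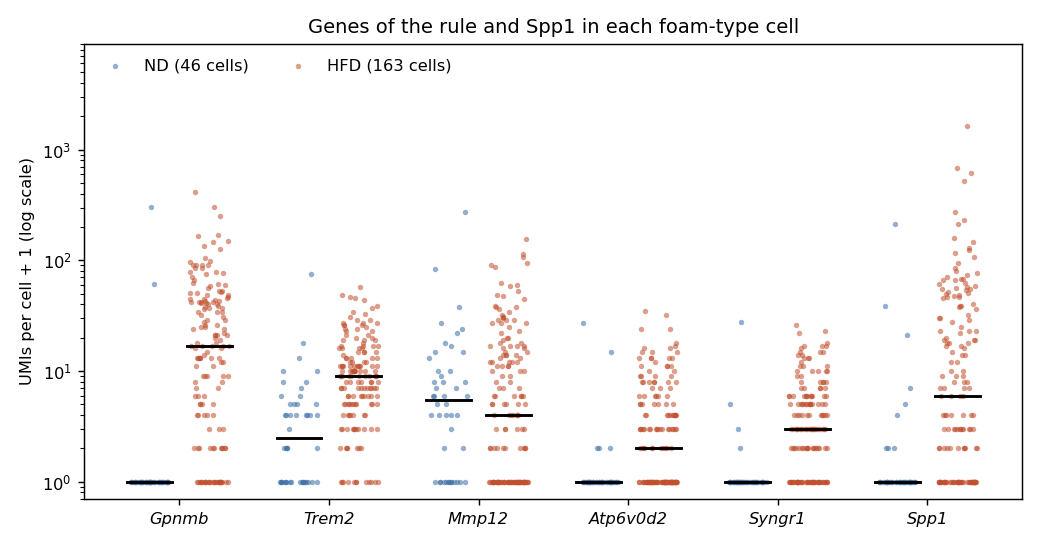
UMIs per cell plus 1 (y axis, log scale) of the 5 genes of F and of Spp1 in each of the 46 ND and 163 HFD members, with the bar at the median. Gpnmb is at 0 in all but 2 ND members, while its median over HFD members is 16 UMIs.

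To see how far each gene followed the rest of the rule, each of the 5 was left out of F in turn. All classes were formed anew each time, so members that no longer met the rule were counted in the other classes. Among the 156 HFD cells chosen without Gpnmb, it was still found in 81.4% (74.4% to 87.2%), against 4.02% (1.75% to 7.77%) of resident-type cells and 8.55% (4.17% to 15.2%) of cells of neither kind. Syngr1 behaved in the same way, with 71.6% (64.0% to 78.4%) of 162 HFD cells chosen without it and 0.505% (0.0128% to 2.78%) of resident-type cells. Trem2 was less confined to the HFD cells chosen without it. It was found in 91.8% of these 146 cells, in 47% of resident-type cells and in 45.2% of cells of neither kind. Its levels were 1148, 169 and 174 CPM. In the ND library, Mmp12 was found in 38.1% (18.1% to 61.6%) of the 21 cells chosen without it. It was found in 27.3% (19.6% to 36.1%) of the 121 cells then of neither kind, intervals that overlap. Under the full rule 97 ND cells were of neither kind, so this group held former members and the overlap is partly set by the method. The level of Mmp12 was 902 against 369 CPM, and 538 (427 to 669) CPM without the 2 ND cells with Gpnmb. Likewise Trem2 was found in 40% (22.7% to 59.4%) of 30 ND cells chosen without it and in 36.6% (27.7% to 46.2%) of the 112 cells then of neither kind, again with former members among them. Its level was 601 against 196 CPM, and 214 (147 to 299.9) CPM without these 2 cells. At the threshold, the 8 ND members with F of 3 had 0 UMIs of Spp1, and so did the 9 ND cells of neither kind with F of 2. For the 4 HFD members with F of 3, Lgals3 was at 3496 CPM and Fabp5 at 742 CPM, against 1306 and 170 CPM in 15 cells with F of 2. Other genes went the opposite way, with Spp1 at 70.6 against 157 CPM, Itgax at 0 against 52.2 CPM and Acp5 at 35.3 against 52.2 CPM. Lgals3 in the ND library was at 1352 CPM with F of 3 and 1576 CPM with F of 2.

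Beside resident-type cells of the same HFD library, foam-type members held more RNA of many foam programme and lysosomal genes and less of resident macrophage, complement and interferon-induced genes. Of 5271 genes with at least 50 UMIs over both groups, other than the genes of the rule, 9.32% were at least 2-fold higher in foam-type cells and 11.4% at least 2-fold lower. Of the 26 tested genes of the foam and TREM2 programme list, 21 were at least 2-fold higher and 1 lower, with a median log2 ratio of 2.18 against -0.04 over all tested genes. This list was compiled from knowledge of such cells and shares their defining trait with the rule, so it is no independent evidence. The comparison is within 1 library, and its values are ratios between groups that the counts themselves defined.

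**Figure D3:**
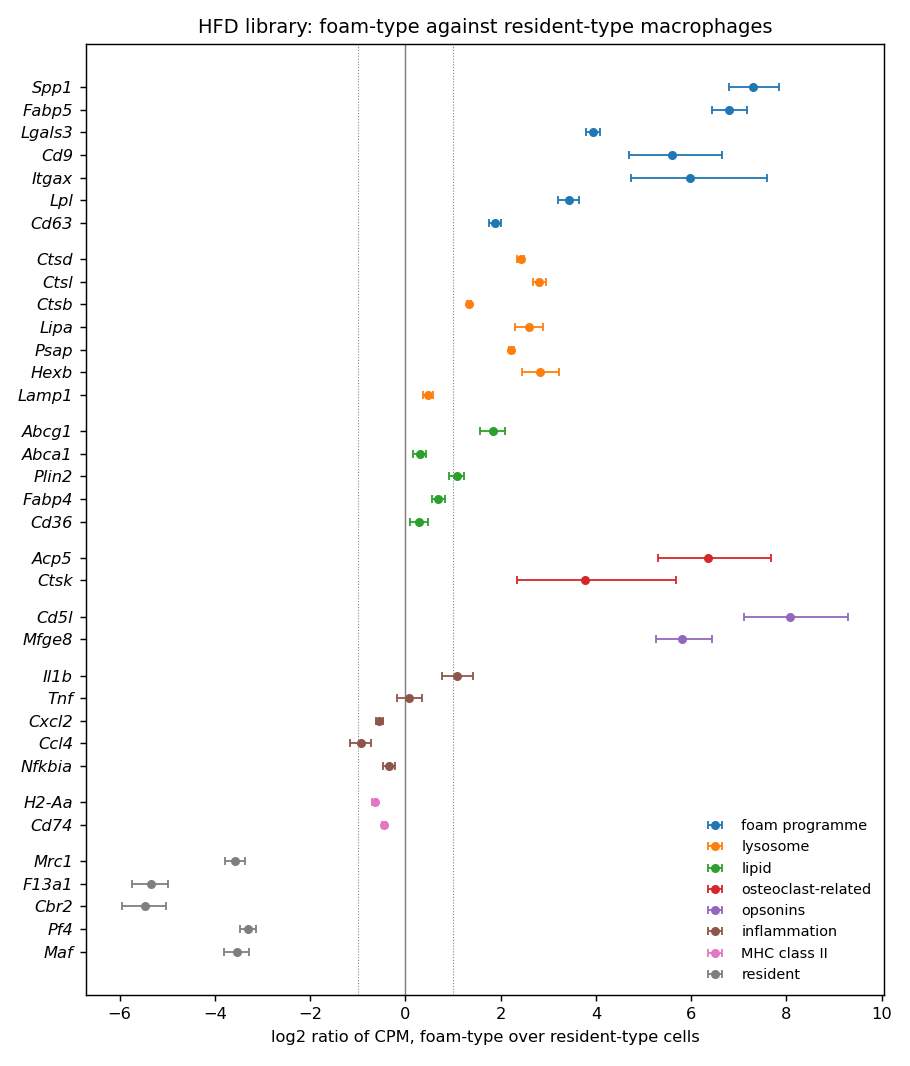
The log2 ratio of CPM, HFD foam-type over resident-type cells (x axis), of 35 genes in 8 coloured sets, with exact 95% intervals of counting error and dotted lines at 2-fold. Spp1, Fabp5 and Cd5l lie at 7.30, 6.79 and 8.08, while the resident genes Mrc1, F13a1, Cbr2, Pf4 and Maf all lie below -3.

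Among lipid-handling genes, Fabp5 (chr3:10012548-10016607, plus strand), which encodes an intracellular fatty acid carrier, was at 6552 (6427 to 6679) CPM in HFD foam-type and 59.2 (45.7 to 75.4) CPM in resident-type cells, a log2 ratio of 6.79 (6.44 to 7.17). It was found in 87.7% of the members, from 0 to 586 UMIs per cell with a median of 34. Cd5l (chr3:87357881-87371073, plus strand), which encodes a secreted scavenger receptor protein of macrophages, was at 1971 against 7.28 CPM, a log2 ratio of 8.08 (7.10 to 9.29). It was found in 36.2% of members, and 8 cells held 61.8% of its UMIs. Lpl, encoding lipoprotein lipase, was at 1819.6 against 169 CPM, with a log2 ratio of 3.43 (3.21 to 3.65). Of the 10 tested genes of lipoprotein and fatty acid uptake, 5 were at least 2-fold higher and 1 lower, with a median of 0.95.

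The uptake receptors did not all follow. Lrp1, a clearance receptor of lipoproteins, was at 522 against 227 CPM. Cd36 and Msr1, the classical scavenger receptors for modified lipoprotein, were at 419 against 345 and at 134 against 113 CPM, log2 ratios of 0.28 (0.10 to 0.47) and 0.24 (-0.08 to 0.57). Stab1, a scavenger receptor of resident macrophages, was lower, with a log2 ratio of -2.52 (-2.75 to -2.28).

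In cholesterol efflux, 7 of 19 tested genes were at least 2-fold higher and 1 lower, with a median of 0.30. Abcg1, which exports cholesterol to high-density lipoprotein, was at 488 (455 to 524) against 137 (116 to 161) CPM, while its partner transporter Abca1 was at 809 (765 to 854) against 657 (610.2 to 707) CPM. Soat1, which esterifies cholesterol for storage, was at 256 against 81.0 CPM, and Nceh1, a hydrolase of cholesteryl esters, at 205 against 40.1 CPM. Of 17 lipid storage genes 3 were at least 2-fold higher and 0 lower, among them the lipid droplet coat gene Plin2 at 848 against 402 CPM and Hilpda at 181 against 22.8 CPM. Sterol synthesis genes were sparse, with 6 of 25 tested, 1 higher and 1 lower.

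Genes of lysosomal enzymes were higher in their sum and in part one by one. The 36 listed hydrolases and cathepsins together took 48110.4 CPM in HFD foam-type cells, 2.92 times their sum in resident-type cells. Of the 33 tested, 12 were at least 2-fold higher and 1 lower, with a median log2 ratio of 0.58. Ctsd (chr7:142375911-142388038, minus strand), the aspartic protease cathepsin D, was at 7095 (6964 to 7227) against 1326 (1259 to 1396) CPM, and every HFD member but 1 had a UMI of it, with a median of 45 and a highest of 489. Ctsl was at 3543 against 503 CPM and Psap, the precursor of the saposins that help to break down sphingolipids, at 11813 against 2532 CPM. Lipa, the acid lipase that frees cholesterol from lipoprotein esters in the lysosome, was at 593 (555 to 632) against 98.3 (80.6 to 119) CPM. Acp5, the acid phosphatase also made by osteoclasts, was at 522 against 6.37 CPM, a log2 ratio of 6.36 (5.31 to 7.68). Ctsc was the exception, at 386 against 1176 CPM.

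Proton pump and lysosome membrane genes were also higher in part. Of 27 tested, 11 were at least 2-fold higher and 0 lower, with a median of 0.61. Atp6v1c1, a subunit of the pump, was at 149 against 47.3 CPM, and Npc2, which hands cholesterol from the lysosome lumen to its membrane partner, at 1605 against 785 CPM. Lamp1 and Lamp2, the abundant membrane glycoproteins, differed less, with log2 ratios of 0.48 (0.37 to 0.59) and -0.56 (-0.74 to -0.39).

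Because many lysosomal promoters carry a site for MiT/TFE factors, the windows from 250 bases before to 50 after each RefSeq start (GRCm38.p6) were searched on both strands for the E-box CACGTG and the M-box TCATGTG, letters that do not overlap one another. At least 1 of the motifs was in 10.7% of 32851 windows, and at gene level in 12.1% of 27025 genes. It was in 14 of 28 hydrolase and cathepsin genes in the table (50%) and in 10 of 24 pump and membrane genes (41.7%). For comparison, it was in 16.0% of the genes tested between foam-type and resident-type cells, in 68 of the 381 at least 2-fold higher (17.8%), in 59 of the 455 at least 2-fold lower, in 5 of 18 sterol synthesis genes (27.8%), in 5 of 27 foam programme genes (18.5%) and in 1 of 24 resident macrophage genes (4.17%). The windows of Gpnmb, Trem2, Syngr1, Spp1, Lgals3, Cd5l and Mfge8 held neither run of letters. Atp6v0d2 and Fabp5 had no entry in the table and were not searched. Of the other rule genes Mmp12 held an M-box, before its second annotated start. These stretches are shown because they carry the motifs, in capitals, upstream of genes of the rule and of the lysosome lists, and they lie outside annotated exons. The M-box reads CACATGA on the opposite strand.
Lamp1, chr8:13159073-13159160, plus strand, ending at the start site: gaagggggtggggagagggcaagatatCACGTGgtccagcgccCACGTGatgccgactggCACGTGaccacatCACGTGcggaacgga
Atp6v1a, chr16:44139358-44139417, minus strand: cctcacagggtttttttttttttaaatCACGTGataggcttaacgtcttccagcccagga
Lgmn, chr12:102439109-102439168, minus strand: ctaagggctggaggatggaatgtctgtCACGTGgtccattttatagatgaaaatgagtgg
Acp5, chr9:22130655-22130715, minus strand: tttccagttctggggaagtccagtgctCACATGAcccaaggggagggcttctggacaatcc
Mmp12, chr9:7347264-7347324, plus strand: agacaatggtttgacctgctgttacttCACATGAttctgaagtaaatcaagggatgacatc
The Lamp1 stretch holds 4 E-boxes, at 61, 45, 28 and 15 bases before the start. A match describes letters only and shows no binding. Lgmn, the protease legumain, was at 2168 CPM in HFD foam-type and 1572 CPM in resident-type cells, and Atp6v1a at 321 and 176 CPM.

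Around TREM2, the adaptor gene Tyrobp was at 2923 (2839.8 to 3008) CPM in HFD foam-type and 1350.0 (1282 to 1420.5) CPM in resident-type cells and was found in all members. Of 24 tested genes of TREM2 signalling and phagocytosis, 10 were at least 2-fold higher and 4 lower, with a median of 0.30. Itgax, the integrin CD11c, was at 285 against 4.55 CPM, and Axl, a receptor for dying cells, at 241 against 69.2 CPM. Mfge8 (chr7:79133768-79149060, minus strand), which bridges dying cells to phagocytes, was at 1332 against 23.7 CPM, but 8 cells held 75.5% of its 2124 UMIs. Gas6, the ligand of AXL and MERTK, was lower at 87.2 against 773 CPM, and the inhibitory receptor gene Fcgr2b at 271 against 1010.4 CPM. Of 10 tested osteoclast-related genes 6 were at least 2-fold higher and 1 lower, while the osteoclast markers Calcr and Oscar were at 0 in the members of both libraries.

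Iron genes went both ways. Of 22 tested genes for iron, haem and redox, 9 were at least 2-fold higher and 4 lower, with a median of 0.75. Fth1, the ferritin heavy chain, was at 26788 (26534 to 27043) against 5659 (5519.5 to 5802) CPM, and Slc40a1, which encodes the iron exporter ferroportin, at 125 against 10.0 CPM. Hmox1, which breaks down haem, was lower at 393 against 1096 CPM, as were the metallothionein genes Mt1 at 744 against 2783 and Mt2 at 40.1 against 571 CPM.

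Cytokine and chemokine genes also went both ways. Of 33 tested inflammatory cytokine and NF-kB genes, 7 were at least 2-fold higher and 13 lower, with a median of -0.49. The chemokine genes Ccl8, Ccl7 and Ccl2 were at 256 against 6857, 61.4 against 899 and 119 against 827 CPM. In contrast, Cxcl16, a membrane-bound chemokine, was at 475 against 107 CPM, and Il1b at 204 against 96.5 CPM. Gdf15, a stress-induced cytokine, was at 739 (697 to 782) against 124 (104 to 146) CPM. Il7r, the interleukin-7 receptor chain, had 440 UMIs in HFD foam-type and 1 in resident-type cells, a log2 ratio of 8.24 (5.76 to 13.55). Ccl5 also reached the 10 largest ratios, with 180 UMIs found in only 4.91% of members.

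The lower genes were led by those of resident macrophages. Of 25 tested genes of that list, which partly define the resident-type cells, 23 were at least 2-fold lower and 0 higher, with a median of -4.29. F13a1, the transglutaminase of clotting, was at 39.5 against 1611 CPM, Cbr2 at 25.7 against 1136 CPM and the lectin gene Cd209g at 2.51 against 205 CPM. C6, a complement gene, and Timd4, a receptor for dying cells, had 0 UMIs in HFD foam-type cells. At a floor of 3 UMIs for the whole group, they were at least 76.9-fold and 49.4-fold lower. Selenop and Ninj1 were the exceptions, with log2 ratios of -0.62 (-0.68 to -0.55) and -0.93 (-1.06 to -0.79).

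Complement and interferon-induced genes were lower in part. Of 9 tested complement genes outside the rule, 7 were at least 2-fold lower and 0 higher, with C4b at 30.7 against 1364 CPM. Of 20 tested interferon-induced genes 10 were lower and 1 higher, with Ifi27l2a at 394 against 3726 CPM and Ifitm3 at 355 against 2022 CPM. In the antigen presentation list (MHC class II and co-stimulatory genes), 2 of 9 tested genes were at least 2-fold lower and 0 higher, with a median of -0.63. The 2 were the co-stimulatory genes Cd86 and Cd40, and no MHC class II gene passed 2-fold. H2-Aa was at 3192 (3105 to 3281) against 4986 (4855 to 5119.5) CPM. In the HFD members without Gpnmb alone, H2-Aa was at 5886 (5568 to 6217) CPM, above the resident-type level.

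Of 24 tested transcription factor genes, 4 were at least 2-fold higher and 5 lower, with a median of -0.11. Over all tested genes 9.32% were higher and 11.4% lower. Bhlhe40 was at 211 against 15.5 CPM and Maf, a factor of resident macrophages, at 82.8 against 963 CPM. Spi1, the factor PU.1 that all macrophages use, was at 314 against 294 CPM, a log2 ratio of 0.10 (-0.11 to 0.30). Among matrix genes 7 of 18 tested were at least 2-fold higher and 3 lower, with Tgm2, a crosslinking enzyme, at 266 against 12.7 CPM. Chemokine receptor and growth factor genes were 9 higher and 7 lower of 20, and glycolysis genes 3 higher and 1 lower of 13. Of 5 tested cell cycle genes, 1 was higher and 0 lower, and Mki67, a marker of dividing cells, had 17 UMIs in 8 HFD members. Of the 23 tested macrophage genes that the study names, which its authors chose on these libraries, 9 were higher and 7 lower.

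Macrophages of neither kind shared with resident-type cells the lower sums of lipid uptake and storage genes but not all other differences. Uptake genes summed to 12761 CPM in HFD foam-type, 2365 CPM in resident-type and 2616 CPM in cells of neither kind. Storage genes summed to 10356, 2732 and 2937 CPM, and both lists hold Fabp5. Cholesterol efflux genes differed less for resident-type cells, at 4378, 3549 and 2170 CPM. Of 4487 tested genes, 10.7% were at least 2-fold higher in HFD foam-type cells than in these cells and 6.66% at least 2-fold lower. The foam and TREM2 programme had 21 of 25 tested genes higher and 1 lower, with a median of 2.36 against 0.06 over all tested genes, and the hydrolases and cathepsins 17 of 32 higher and 1 lower, with a median of 1.26. Il18bp, a decoy for interleukin-18, was at 303 against 15.3 CPM, and the aminopeptidase gene Anpep at 246 against 18.7 CPM. S100a8 was also among the 10 largest ratios, but 331 of its 354 UMIs lay in 1 cell.

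In the antigen presentation list 7 of 8 tested genes were lower and 0 higher, with a median of -1.43, and 6 of the 7 were MHC class II or invariant chain genes and the other their activator Ciita. H2-Aa was at 3192 against 8413 CPM, and Cd74, the invariant chain, at 7643 against 18676 CPM. Ccr2, the chemokine receptor of inflammatory monocytes, was at 43.3 (33.7 to 54.8) CPM in foam-type and 741 (673 to 814) CPM in these cells, and Fn1, encoding fibronectin, at 103 against 914 CPM. The 7 monocyte markers, all detected in both and Ccr2 among them, summed to 85.3 CPM in foam-type cells and 916 CPM in these cells. Of these sums Ccr2 alone was 43.3 and 741 CPM. In the cells of neither kind 2 of the 7 were above 50 CPM. Abca1 was at 809 against 317 CPM. Both comparisons use the same HFD foam-type cells, so their ratios are not independent.

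Between the diets, HFD members held more RNA of several foam programme, cholesterol efflux and lysosomal hydrolase genes than ND members, and less of many inflammatory and antigen presentation genes. Of 4069 tested genes outside the rule, 5.78% were at least 2-fold higher and 6.37% at least 2-fold lower, 235 and 259 genes. The median of ratios over 3895 well-counted genes was -0.17 on the log2 scale, and with ratios taken relative to it 346 were higher and 182 lower. Of 24 tested foam and TREM2 programme genes, 12 were higher and 1 lower, with a median of 0.97. Since each diet is 1 library, diet cannot be told apart from library.

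Spp1 was at 4598 CPM in HFD and 861 CPM in ND members, and Cd5l at 1971 (1903 to 2041) and 274 (221 to 337) CPM, with all 91 ND UMIs of Cd5l in 1 cell. Gdf15 was at 739 (697 to 782) and 123 (88.6 to 168) CPM. Hydrolases and cathepsins were at least 2-fold higher for 8 of 32 tested and lower for 0, with a median of 0.77, and Ctsb was at 9834 against 4720.0 CPM. Of 16 tested cholesterol efflux genes 7 were higher and 0 lower, with Abca1 at 809 against 379.5 CPM. Pump and membrane genes were higher for 1 of 25, a share below that of all genes, and lower for 0. Lipoprotein and fatty acid uptake genes were higher for 4 of 9 and lower for 0, with a median of 0.26, and lipid storage genes for 4 of 14 and lower for 0, with a median of 0.59. Lpl was the same within its interval, with a log2 ratio of 0.03 (-0.10 to 0.16), and Itgax had 0.15 (-0.18 to 0.50).

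Of 31 inflammatory genes, 2 were at least 2-fold higher and 19 lower in HFD members, with a median of -1.10. Cxcl2, a chemokine for neutrophils, was at 2264 (2191 to 2339) CPM in HFD and 7045 (6763 to 7337) CPM in ND members, and Nlrp3, the inflammasome sensor, at 68.3 and 334 CPM. Antigen presentation genes were lower for 6 of 8 and higher for 0, with a median of -1.14 and Cd74 at 7643 and 19148 CPM. Egr1, an immediate early gene, was at 231 and 1262 CPM. Resident macrophage genes were lower for 8 of 16, with Mrc1 at 129.8 and 271 CPM, and higher for 1, with a median of -0.91. Matrix genes were 2 higher and 5 lower of 18, and iron, haem and redox genes 2 higher and 4 lower of 21.

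Several of the 10 largest ratios between the diets were of genes that mark other cell types or had their UMIs in few cells. Higher in HFD members were Hba-a1 and Hbb-bs, and 8 HFD cells held 94.9% of the Hbb-bs UMIs. Erythroid markers summed to 6572 CPM in HFD and 84.3 CPM in ND members, with 5 of 5 markers found in the former and Alas2 at 0 in the latter. Lower in HFD members were Mgp and Dcn, and the 7 fibroblast markers, all detected in both, summed to 277 CPM in HFD and 1596 CPM in ND members, where 5 cells held 87.9% of them. Retnla was at 82.8 CPM in HFD and 1286 CPM in ND members, found in 2.45% and 10.9% of cells. Its order turned with the threshold on F, with a log2 ratio of 0.52 where F was at least 5. The part of such RNA in the diet ratios was not tested.

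The ND and HFD Gpnmb-negative members, a post hoc choice of 44 and 29 cells, were also compared between the diets. Of 1229 tested genes, 2.20% were at least 2-fold higher and 5.29% at least 2-fold lower in the HFD cells. Among the largest ratios were Fabp5 at 1259.6 (1115 to 1418) CPM in HFD and 111 (75.6 to 158) CPM in ND cells, Spp1 at 1063 (930.3 to 1209) and 129 (90.5 to 179), and Gdf15 at 760.3 (649 to 885) and 133 (93.5 to 183). A single HFD cell held 157 of the 232 HFD UMIs of Spp1, which was found in 37.9% of the HFD cells. Of 18 tested foam and TREM2 programme genes 5 were higher and 1 lower, with a median of 0.68, and of 6 tested cholesterol efflux genes 1 was higher and 0 lower. Hydrolases were 2 higher and 0 lower of 20, pump and membrane genes 0 higher and 1 lower of 20, and uptake genes 2 higher and 1 lower of 7, with a median of -0.33. Abca1 was at 540.5 against 223 CPM. Ccl5, also among the 10 largest ratios, was found in 6.90% of the HFD cells, that is in 2.

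For the inflammatory genes, 2 of 27 were higher and 9 lower in these HFD cells, with a median of -0.68. Ccl4 was at 321 against 1149 CPM and Nlrp3 at 147 against 398 CPM. Antigen presentation genes did not pass 2-fold in either direction, 0 of 6, with a median of -0.54 and H2-Aa at 5886 against 8751 CPM. The HFD cells were deeper, at a median of 7366 against 5055.5 UMIs, and the intervals of 29 cells are wide.

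**Figure D4:**
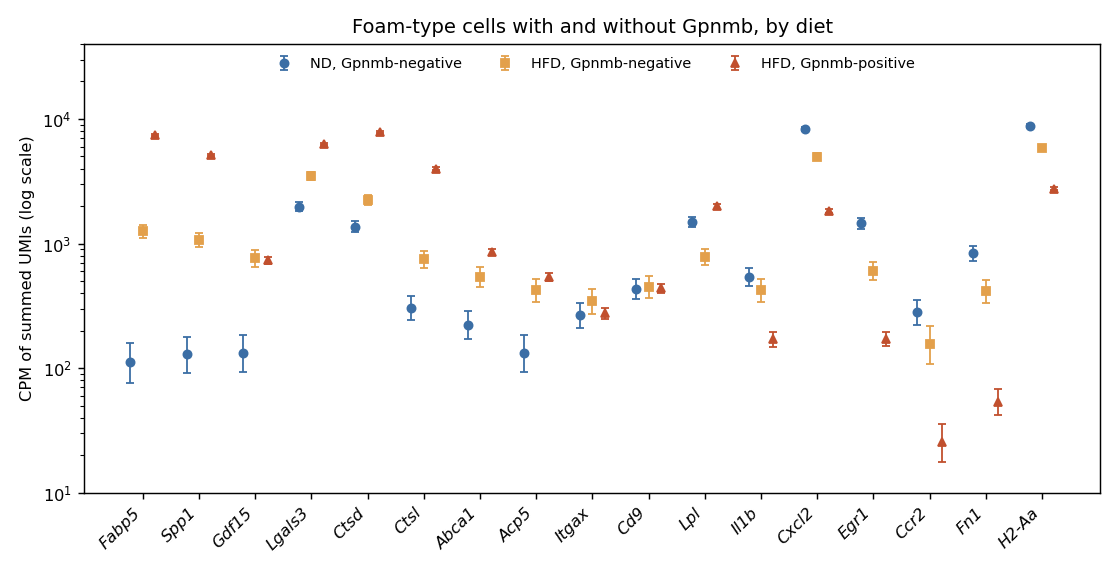
CPM of summed UMIs (y axis, log scale) of 17 genes in ND Gpnmb-negative (44), HFD Gpnmb-negative (29) and HFD Gpnmb-positive (134) members, with exact 95% Poisson intervals. Fabp5 is at 111, 1260 and 7392 CPM, while H2-Aa is at 8751, 5886 and 2765 CPM.

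Within the HFD library the members formed a range by their Gpnmb count. They were set in 3 bins, 29 cells without a UMI of Gpnmb and 2 bins of 67 with a lower and a higher share of Gpnmb in their UMIs. Since a gene of the rule set the bins, their values are a description. Fabp5 was at 1259.6 (1115 to 1418), 4239 (4076 to 4407) and 9843 (9624 to 10067) CPM in these bins. Ctsd was at 2249, 4502 and 10478 CPM, and the hydrolase list as a whole at 24358, 36644 and 63725 CPM. Spp1 was at 1063, 2793 and 6998 CPM and Lgals3, encoding galectin-3, at 3467, 5133 and 7236 CPM. All of these were lowest in the cells without Gpnmb and highest in the cells with the most.

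Other genes differed between the bins in another way. Ctsl was at 751, 668 and 6566 CPM, so that the intervals of the first and second bins overlapped and the last stood apart. Cd5l was at 22.9, 593 and 3593 CPM, and Mfge8 at 22.9, 98.0 and 2660 CPM. Antigen presentation genes ran the opposite way, with their sum at 29612, 24210 and 7452 CPM and H2-Aa at 5886, 4407 and 1488 CPM. Cxcl2 was at 4988, 2265 and 1495 CPM and Fn1 at 412, 111 and 9.04 CPM. C1qa, which helped to choose all C1q macrophages, was at 3284, 3510 and 2359 CPM. The median depth of the bins was 7366, 7752 and 10263 UMIs, and the share of Gpnmb is part of the same total as all other genes.

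**Figure D5:**
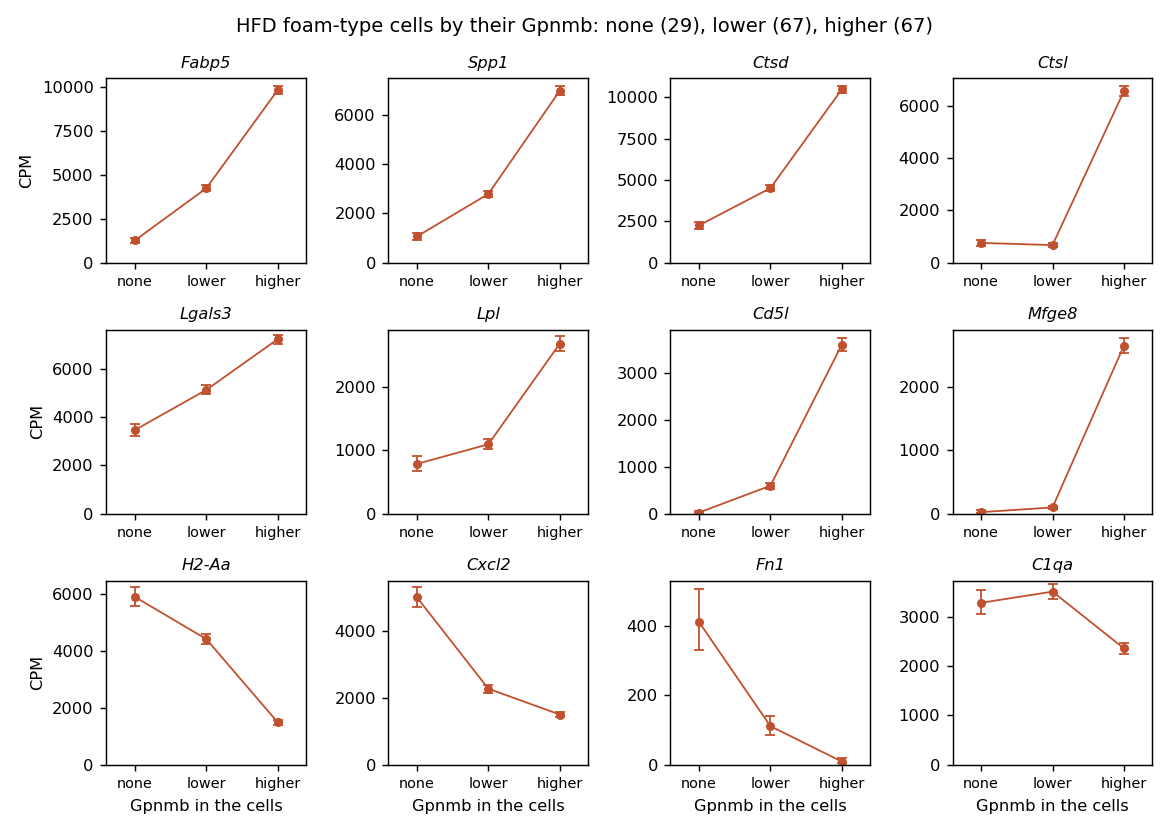
CPM of summed UMIs (y axes, linear from 0, each panel with its own scale) of 12 genes in the 29 HFD members without Gpnmb and in the 67 with a lower and 67 with a higher share of Gpnmb, with exact 95% Poisson intervals. Ctsd goes from 2249 to 10478 CPM and H2-Aa from 5886 to 1488 CPM.

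Across the 163 HFD members, each thinned to 1000 UMIs, Spearman's rho between Gpnmb and Ctsd was 0.571, between Gpnmb and Fabp5 0.556 and between Gpnmb and Spp1 0.422. Between Gpnmb and Mmp12 it was 0.106, and between Spp1 and Mmp12 0.138, although both Gpnmb and Mmp12 belong to the rule. Gpnmb and H2-Aa had a rho of -0.444. These cells share 1 library and the same total, and the values describe them without a test.

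Of the 44 ND Gpnmb-negative members, 31 had a UMI of Mmp12 and 13 had Trem2 without it, and these subsets differed in other genes. The 31 cells with Mmp12 had Itgax at 397 (308 to 503) CPM, against 56.0 (20.6 to 122) CPM in the 13, Cd9 at 589 against 187 CPM and Il1b at 752 against 205 CPM. Mmp13, another matrix protease gene, was at 198 against 0 CPM. The 13 cells had more F13a1, at 541 (411 to 699.9) against 46.7 (20.1 to 91.9) CPM, more Ccr2, at 532 against 122 CPM, and more Ctsd, at 2464 against 682 CPM. In the HFD library the same division of the 29 Gpnmb-negative members gave 18 and 11 cells, with Itgax at 473 and 93.8 CPM, F13a1 at 20.9 and 456 CPM, and Ctsd at 2532 and 1703 CPM. Thus Itgax and F13a1 had the same order in both libraries and Ctsd the opposite one.

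The 2 ND members with Gpnmb were deep cells of 31501 and 21879 UMIs with all 5 genes of F. They held 212 and 38 of the 286 ND UMIs of Spp1 and 451 and 178 of the 660 of Fabp5. One of them had 219 UMIs of Mfge8 and 0 of Cd5l, and the other 1 and 91. Their H2-Aa counts were 0 and 2 UMIs. Levels of Fabp5, Spp1, Mfge8 and Ctsd over all ND members therefore rest largely on these 2 cells, while the levels of ND Gpnmb-negative members above leave them out. Without these 2 cells Fabp5 was at 111, Mfge8 at 17.9 and Ctsd at 1368 CPM.

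Beside ND resident-type cells, the ND members held less RNA of resident macrophage genes, and their foam programme count turned on 2 cells. Of 3684 tested genes 5.75% were at least 2-fold higher and 14.4% at least 2-fold lower in the members. The foam and TREM2 programme had 14 of 22 tested genes higher and 2 lower, with a median of 1.54, and the resident macrophage list 25 of 25 lower. Without the 2 cells with Gpnmb, 4.70% of 3575 tested genes were higher and 14.2% lower, the programme had 5 of 18 higher and 3 lower, with a median of 0.62, and the resident list again 25 of 25 lower. The summed level of the programme was 26600 CPM in all ND members, 16726 CPM without the 2 cells and 11705 CPM in ND resident-type cells. The resident list partly defines the resident-type cells, so its direction was partly set by the rule. It summed to 4175 CPM in ND members, 7265 CPM in ND cells of neither kind and 22914 CPM in ND resident-type cells. Lgals3 was at 2937 (2755 to 3127) against 162 (139 to 187) CPM and Lpl at 1783 against 146 CPM. Inflammatory genes were 10 higher and 7 lower of 29, with Il1b at 455 against 29.7 CPM. Antigen presentation genes had a median of 0.51 over 9 genes with 0 past 2-fold, and without the 2 cells 2 were higher and 0 lower.

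Markers of further cell types were checked in the members, and their part in the results was not tested. Alveolar macrophage markers were listed since a lung dissociation kit had been used. Of 11, 7 were found in HFD members, 2 of them above 50 CPM, while Marco, Plet1, Fabp1 and Cidec were at 0. The list summed to 377 CPM, most of it Itgax at 285 CPM. In ND members 9 of the 11 were at 0, including Marco and Siglecf, and the list summed to 325 CPM. Siglecf was among the 7 found in HFD members. Markers of airway club cells summed to 178 CPM in ND and 1.25 CPM in HFD members. Markers of T and NK cells, of the endothelium and of smooth muscle each summed to at most 61.4 CPM in the members of either library. Neutrophil markers summed to 486 CPM in HFD members, 91.4% of it in 5 cells.

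RNA of Gpnmb, Spp1 and Fabp5 was also counted in lymphocytes and endothelial cells. RNA free in the suspension and barcodes of more than 1 cell were not told apart there. In HFD lymphocytes, with a median of 5286 UMIs, 8.45% (3.16% to 17.5%) of 71 cells had a UMI of Gpnmb, at 31.7 CPM, and 3.96% of 1388 HFD endothelial cells had one, at 40.5 CPM. The share in HFD members was 82.2% and that in HFD resident-type cells 3.54%, so the latter lies within the interval of the lymphocytes. In ND lymphocytes, with a median of 3104 UMIs, it was 0.664% of 903 cells. Spp1 was at 143 CPM in HFD lymphocytes, where its 63 UMIs lay in 8.45% of the cells, and at 29.1 CPM in resident-type cells. Fabp5 was also found in endothelial cells, at 659 CPM in HFD and 539 CPM in ND endothelial cells.

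Of all barcodes 39 names occurred in both libraries, and 1 ND member shared its name with an HFD barcode that was not kept. Scrublet, a caller of doublets, marked 0 ND cells and 1 HFD cell at its own threshold, a share too low to rely on. In the highest 6% of doublet scores lay 3 of 46 ND members (6.52%, 1.37% to 17.9%) and 14 of 163 HFD members (8.59%, 4.78% to 14.0%). So did 4 of 198 HFD resident-type cells (2.02%, 0.553% to 5.09%) and 9 of 111 HFD cells of neither kind (8.11%, 3.77% to 14.8%). Tied scores included, these were 6.54% of all kept ND and 6.83% of all kept HFD cells.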

How the data were processed

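The authors deposited raw UMI counts per gene and barcode for both libraries, made with Cell Ranger on mm10 per the submitters' processing notes, which also name Seurat 3.2.0 and R 4.0.0. The counts are not normalized. A matrix joining both libraries was not used. Gene positions and exons came from GENCODE M21 (GRCm38), which held 30934 of the 31053 gene identifiers, and promoter windows from RefSeq. Where a symbol occurred more than once in the counts, its first row was taken.

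Barcodes were filtered and chosen by the rule given in the report, and UMIs were summed per group of cells. CPM is a gene's UMIs per 1000000 UMIs of its group, mitochondrial UMIs included. Kept cells had 640 to 61331 UMIs in the ND and 1176 to 61381 in the HFD sample. Intervals are exact 95% intervals, Poisson for CPM, Clopper-Pearson for shares and conditional binomial for ratios. They cover counting error only. Ratios were taken for genes with at least 50 UMIs over both groups, without the 13 genes of the rule. A gene was counted as higher or lower past 2-fold, since 1 library per diet allows no test.

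The members and the lists were chosen with earlier results of these data known. Named genes were those of the rule, the markers, the genes the study names, members of the lists with the highest levels or largest ratios, and the 10 largest ratios in each direction with at least 100 UMIs in both groups and at least 4 in each. The split of members by Gpnmb, the further split by Mmp12 and the genes compared between these splits were chosen after their values were seen. The ratio script was checked on simulated data. Alternatives changed the thresholds and genes of the rule, the depth, the scaling, the count minimum and the treatment of doublets. Python 3.11.15 was used with numpy 2.4.6, scipy 1.17.1, pandas 2.3.3, matplotlib 3.10.9 and, for Scrublet, scanpy 1.11.5.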

Additional observations from a re-analysis of the deposited data

Results flagged for a closer look

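Barcodes over the mitochondrial limit were in no comparison of the report, and foam-type cells were found among them. In the HFD library 72 of 426 C1q macrophages over 30% mitochondrial UMIs met the rule, a share of 16.9% (13.5% to 20.8%), against 2 of 113 in the ND library (1.77%, 0.215% to 6.25%). Of the 72 HFD barcodes 57 had a UMI of Gpnmb, with Gpnmb at 3690 CPM, Spp1 at 3879 CPM and Fabp5 at 2085 CPM. Their median was 2026.5 UMIs with 49.8% mitochondrial UMIs, and the part of cell damage in these values was not tested.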

How the results depend on the processing

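No paired analysis was possible because each diet is 1 library. The foam-type share was 5.77% to 15.1% for ND over 16 settings and 30.9% to 60% for HFD over 14. The HFD share was above the ND share in all of these. The setting with Gpnmb-negative members alone was not among them. Such members were 12.1% of ND and 6.14% of HFD C1q macrophages, the opposite order. The ND share was 8.52% with F of at least 5, 8.24% with F without Trem2 and 5.77% with F without Mmp12, and the HFD share was 60% with at most 20% mitochondrial UMIs. The 1090 genes past 2-fold between HFD foam-type and resident-type cells became 605 without cells that held endothelial, T cell, B cell or fibroblast UMIs, 677 with Gpnmb-negative members alone, 1760 with at least 20 UMIs and 693 with at least 100. The 494 genes past 2-fold between the diets became 744 without the ND members with Gpnmb, 92 with Gpnmb-negative members alone, 777 with the mean of single-cell CPM, 1243 with at least 20 UMIs and 240 with at least 100. The count minimum and the number of cells set how many genes could be tested; for the other settings the cause was not tested. The settings on Gpnmb, shared names, erythroid and neutrophil UMIs and the cells with the most Spp1 or Mmp12 were chosen after seeing the data.

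Among 719 ratios of named genes to resident-type cells over the settings, 6 changed sign, all with Gpnmb-negative members alone. These log2 ratios were -0.047 for Mfge8, -0.28 for Abca1, 0.24 for H2-Aa, 0.23 for Cd74, 0.59 for Cxcl2 and 1.37 for Fn1. Among 715 ratios between the diets 17 changed sign. Of these, 12 were of Itgax, Lpl and Ctsk, whose intervals held 0 as reported, and 5 were of genes whose intervals did not. For Retnla the latter were 0.52 with F of at least 5, 0.78 with F of at least 0.05% of UMIs and 0.88 with F without Trem2. For Cd9 they were 0.011 without the ND members with Gpnmb and 0.048 with Gpnmb-negative members alone. The median of ratios to resident-type cells was -0.11 on the log2 scale.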
